A study of Mus musculus with 27 samples.

Results

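The non-targeting nanoparticle in the uninjured liver was examined by setting 3 siLuc-LNP mice against 4 control mice, which make 7 of the 27 mice in the series. siLuc-LNP is a lipid nanoparticle loaded with a small interfering RNA (siRNA) against luciferase, a firefly enzyme that mice lack, and served the study as the control for a particle carrying siRNA against hyaluronan synthase 2 (siHAS2-LNP). The members are the genes with a mean count of at least 10 over all 27 libraries, 14114 of the 55414 genes in the table.

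All mice were female Balb/c mice, 8 weeks old per the study's methods, and total liver was homogenized, so every value is an average over all cells of the organ. Control mice received intraperitoneal olive oil, the carrier of carbon tetrachloride (CCl4), and buffer in the tail vein. The siLuc-LNP mice received the same oil and the loaded particle in the tail vein, with a first dose of 1 mg/kg siRNA and later doses of 0.5 mg/kg, given 2 times a week for 2 weeks. The particle held an ionizable lipid, a phospholipid, cholesterol and a lipid carrying polyethylene glycol. Neither an empty particle nor free siRNA was given to a group analysed here, so effects of the lipids, of the siRNA and of the complete particle cannot be told apart. The methods state that control mice were also gavaged with the carboxymethyl cellulose carrier of 4-methylumbelliferone (4MU, an oral inhibitor of hyaluronan synthesis). The labels mention gavage for neither group, so whether the siLuc-LNP mice were gavaged is not given in the sources used here. Mice of other groups were used for comparison: 3 siHAS2-LNP mice given oil and the same particle with the other siRNA, 2 CCl4 mice with chemical liver injury, and 4 CCl4 + siLuc-LNP mice. The values of 3 oil-treated 4MU mice are given for a few genes.

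Lipid nanoparticles that enter the blood collect apolipoproteins and reach the liver, where hepatocytes take them up through lipoprotein receptors and Kupffer cells, the resident macrophages lining the sinusoids, take them up through scavenger receptors. Kupffer cells are long-lived, renew themselves in place and carry markers such as Clec4f, Vsig4, Timd4, Cd5l, Marco and Cd163. When they are lost or activated, monocytes from the blood can enter the liver and become macrophages, which at first carry other genes such as Ccr2, Cx3cr1 and Trem2. RNA brought into a cell by a particle can also meet sensors such as Toll-like receptors and RIG-I, which switch on interferon-stimulated genes.

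Counts summed to 18194261 to 23523015 in the siLuc-LNP libraries and to 18421673 to 27356934 in the control libraries, within a range of 7044386 to 29425937 in the series. By 1 minus Spearman's correlation over genes, siLuc-LNP mouse 1 stood 0.0310 and 0.0330 from mice 2 and 3 of its group, against 0.0105 between those mice and 0.0125 to 0.0192 between control mice. The list of long nuclear transcripts, used as a sign of RNA quality, had a median log2 fold change of 0.28 in siLuc-LNP mice and -0.14 without mouse 1, and its part in the results was not tested. The range of a list's median when each siLuc-LNP mouse was left out in turn is given in parentheses beside most of the medians below. The 8 hepatocyte markers of the fixed lists summed to 166443 to 203132 CPM in control and 131538 to 160989 CPM in siLuc-LNP mice, where CPM are counts per 1000000, taken on library totals scaled by the trimmed mean of M-values. The long nuclear transcripts summed to 3002 CPM in siLuc-LNP mouse 1, 1123 and 1086 CPM in mice 2 and 3, and 900 to 1965 CPM in control mice. Alb (albumin) differed by a log2 fold change of -0.33 (SE 0.22, adjusted p = 0.889). Has2, the target of the other siRNA, had 0 counts in each of the 4 control, 3 siLuc-LNP, 3 siHAS2-LNP and 3 4MU libraries. On unscaled library totals, 3 counts, the limit a count of 0 allows, are at most 0.165 per 1000000 in any control or siLuc-LNP library. Knockdown of Has2 could thus not be checked in uninjured liver.

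Few genes passed the main test, though DESeq2 called 67, limma-voom 84 and the fit without a filter on low counts 143. With 3 siLuc-LNP mice, a low count of calls does not show that few genes changed. edgeR's quasi-likelihood test called 30 of the 14114 genes at a Benjamini-Hochberg adjusted p under 0.05, a share of 0.213%. Of these, 12 genes were higher in siLuc-LNP mice (0.0850%) and 18 were lower (0.128%). An unadjusted p under 0.05 was reached by 960 genes, 6.80% of those tested. The median log2 fold change over all tested genes was 0.01 and the median SE was 0.22. In 28 of the 30 called genes the siLuc-LNP and control mice did not overlap. Over all tested genes, 3.83% had every siLuc-LNP mouse above every control mouse and 3.42% had every one below. The called genes were chosen on these same mice, so their lack of overlap follows largely from that choice and adds no support. It was also part of the rule by which most of the called genes described below were named. The lowest absolute log2 fold change among the called genes was 0.55, that of Coq3. The number of calls fell to 17 without control mouse 4, to 19 without siLuc-LNP mouse 2 and to 14 without siLuc-LNP mouse 3. It was 28 without siLuc-LNP mouse 1, and 12 when only these 7 mice were fitted. That fit had 2 higher and 10 lower calls, and Trem2, Ms4a4a, Ccr1, Art2a and Gpt2 were among the calls lost. Of the 12 raised genes, only Cx3cr1 and Gdf3 stayed called in it. In each of 14 alternative analyses of the same comparison, 9 genes stayed called: Cx3cr1 and Gdf3 among the higher genes, and Cd163, C6, Pcolce2, Colec12, Kcnj16, Marco and Entpd7 among the lower.

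**Figure D1:**
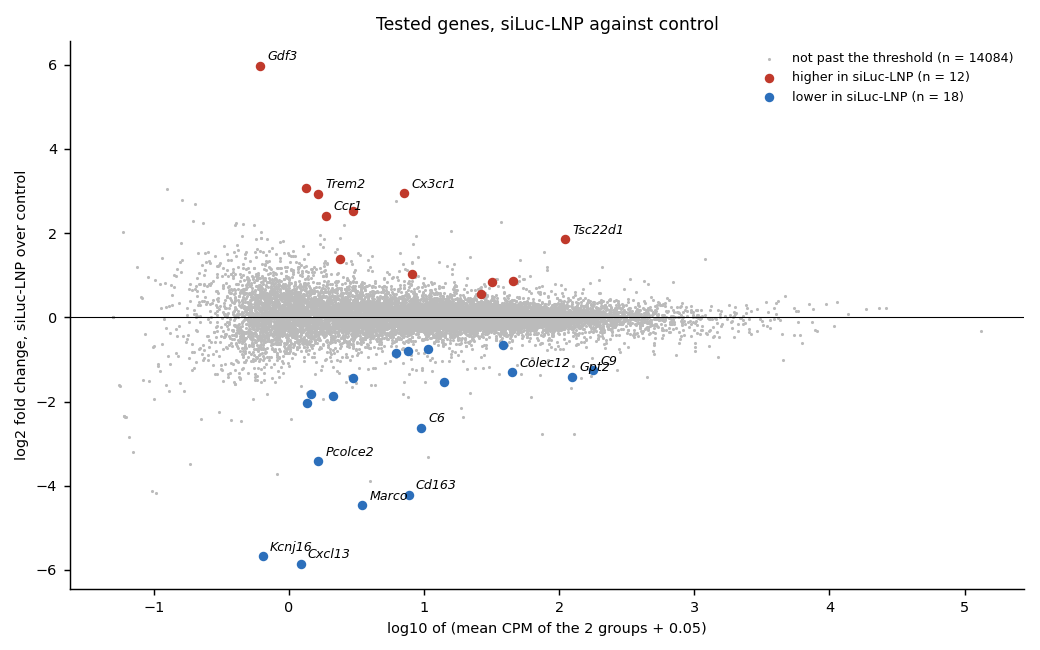
Log2 fold change of siLuc-LNP against control (vertical axis) against mean level (horizontal axis, log10 of mean CPM plus 0.05) for the 14114 tested genes, with the 12 higher and 18 lower genes past the adjusted p of 0.05 in colour. The called genes lie away from a cloud centred on a median of 0.01.

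Genes of resident macrophages were among the most strongly lowered. Cd163, a scavenger receptor that takes up haemoglobin bound to haptoglobin, fell 18.5-fold, Marco, a scavenger receptor for particles and bacteria, fell 22.0-fold, and C6, a component of the complement membrane attack complex that Kupffer cells of the mouse also express, fell 6.16-fold. These were 3 of the 15 tested genes of the Kupffer cell list. No gene of the list was called higher, though 8 of the 15 had a log2 fold change above 0. Because the tissue was measured whole, fewer cells of a type and less RNA per cell cannot be told apart.

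Cd163 (chr6:124281606-124307560, plus strand, GRCm39) stood at 18.7, 7.73, 11.6 and 19.9 CPM in the 4 control mice and at 1.14, 0.798 and 0.439 CPM in the 3 siLuc-LNP mice. The highest siLuc-LNP mouse was thus well below the lowest control mouse, and the difference passed the test (log2 fold change -4.21, SE 0.43, adjusted p = 6.88e-06). The siHAS2-LNP mice had 1.13, 1.70 and 0.897 CPM and the 4MU mice 7.99, 12.2 and 9.62 CPM, so the siHAS2-LNP mice also lay below every control mouse while the 4MU mice overlapped them. The siHAS2-LNP test used the same control mice (log2 fold change -3.53, adjusted p = 5.97e-05).

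Marco (chr1:120402267-120432753, minus strand) was measured at 7.99, 9.56, 5.81 and 2.90 CPM in control mice and at 0.0572, 0.342 and 0.439 CPM in siLuc-LNP mice (log2 fold change -4.46, SE 0.72, adjusted p = 0.00232). Every siLuc-LNP mouse was under 0.5 CPM and every control mouse above 2 CPM. The siHAS2-LNP mice had 0.565, 0.802 and 0.359 CPM (log2 fold change -3.47, adjusted p = 0.0174).

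C6 (chr15:4756525-4844580, plus strand) was at 19.7, 15.6, 12.1 and 17.9 CPM in control mice and 1.83, 2.39 and 3.65 CPM in siLuc-LNP mice, again without overlap (log2 fold change -2.62, SE 0.30, adjusted p = 2.97e-05). It was at 3.23, 2.50 and 2.99 CPM in siHAS2-LNP mice (log2 fold change -2.49, adjusted p = 6.44e-05). The 4MU mice were at 5.74, 13.2 and 7.60 CPM, and 1 of the 3 lay within the range of the control mice.

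The other 12 Kupffer cell markers did not pass the test. Clec4f, the lectin that defines the cell in mice, had 208, 136, 145 and 176 CPM in control mice and 106, 92.6 and 186 CPM in siLuc-LNP mice (log2 fold change -0.37, SE 0.29, adjusted p = 0.921), and the groups overlapped. Vsig4, a complement receptor, had 42.0, 21.0, 24.3 and 45.7 CPM against 9.04, 11.6 and 22.7 CPM (log2 fold change -1.20, SE 0.36, adjusted p = 0.298). For Timd4, a receptor for dying cells, and Cd5l, a secreted macrophage protein, the log2 fold changes were -0.09 and -0.12 (adjusted p = 0.992 and 0.989). Adgre1, a surface marker of mouse macrophages, differed by 0.67 (adjusted p = 0.774), and the C1q subunit genes C1qa, C1qb and C1qc by 0.14, 0.31 and 0.34 on the log2 scale. Over the 15 genes the median log2 fold change was 0.06, against 0.01 over all tested genes, and 8 were above 0. The median was 0.13, 0.04 and -0.22 without siLuc-LNP mouse 1, 2 and 3, so it was below 0 without mouse 3. The list's summed level was 785 to 1115 CPM in control mice and 803 to 1159 CPM in siLuc-LNP mice.

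Cxcl13, Kcnj16 and Pcolce2 also had low values under both particles. Cxcl13 (chr5:96104810-96108927, plus strand), the chemokine that attracts B cells, had 198 counts over the 4 control libraries and 2 counts over the 3 siLuc-LNP libraries, a ratio of 67.7 per library total (95% exact counting interval 18.5 to 563, adjusted p = 0.0105). The call was lost without any 1 of the 3 siLuc-LNP mice. Kcnj16 (chr11:110858843-110927617, plus strand), an inward rectifier potassium channel, had 98 counts against 1, a ratio of 67.1 (11.8 to 2675, adjusted p = 0.00168). Pcolce2 (chr9:95519466-95580207, plus strand), an enhancer of procollagen processing, stood at 2.60, 3.01, 3.63 and 2.49 CPM in control mice and 0.0572, 0.228 and 0.483 CPM in siLuc-LNP mice (log2 fold change -3.42, SE 0.50, adjusted p = 0.000754). In siHAS2-LNP mice Pcolce2 was at 0.485, 0.236 and 0.419 CPM, Cxcl13 at 0.121, 0.0943 and 0 CPM and Kcnj16 at 0, 0.189 and 0 CPM, with adjusted p of 0.00388, 0.0329 and 0.00994 against the same control mice. The counting intervals cover counting error only.

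**Figure D2:**
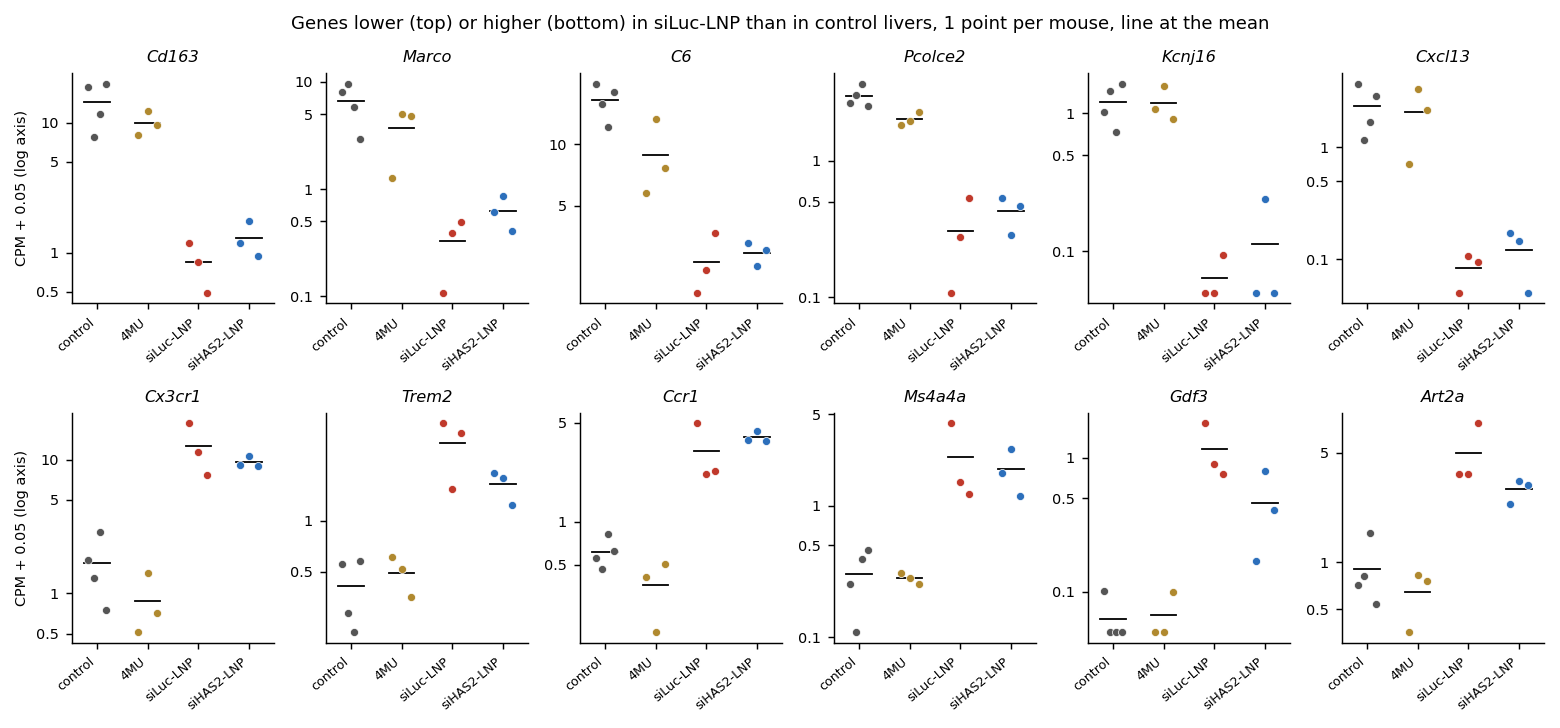
CPM plus 0.05 on a log axis, in each mouse (points) with lines at group means, for 6 lowered (top) and 6 raised (bottom) genes in control, siLuc-LNP, siHAS2-LNP and 4MU mice. Cd163, Marco and C6 are lower, and Cx3cr1, Trem2, Ccr1 and Ms4a4a higher, in every siLuc-LNP mouse than in every control mouse. Such a gap was part of the rule by which these genes were named.

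Genes known from monocytes and newly arrived macrophages were among the most strongly raised. Cx3cr1, the fractalkine receptor, rose 7.67-fold, Trem2, a lipid receptor of macrophages, rose 7.63-fold, Ms4a4a, a tetraspan protein of macrophages, rose 8.42-fold and Ccr1, a chemokine receptor of myeloid cells, rose 5.33-fold. Of the 13 tested genes of the monocyte and infiltrating macrophage list, 2 passed the test, both higher (Cx3cr1 and Trem2), 7 had an unadjusted p under 0.05, all higher, and the median log2 fold change was 0.78 (0.78 to 0.88 with a siLuc-LNP mouse left out). The list's summed level was 112 to 142 CPM in control mice and 173 to 235 CPM in siLuc-LNP mice. Ms4a4a and Ccr1 are in none of the fixed lists. Red cell genes had a median of 0.53 (0.12 to 0.96), with 8 of 8 above 0, none called by edgeR with all mice (2 higher at an unadjusted p under 0.05) and 1 called without siLuc-LNP mouse 1, and their summed level was 284 to 466 CPM in control mice and 136 to 704 CPM in siLuc-LNP mice. The list of genes from pancreas, adipose tissue, muscle and gut had 4 tested genes, all above 0 and none called by edgeR (1 higher at an unadjusted p under 0.05), with a median of 0.68 (0.45 to 0.78). Its summed level was 91.0 to 109.7 CPM in control mice and 152 to 179 CPM in siLuc-LNP mice, without overlap, and the part of either list in the result was not tested.

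Cx3cr1 (chr9:119877749-119898945, minus strand) was at 1.73, 1.24, 2.82 and 0.695 CPM in control mice and at 18.7, 11.3 and 7.60 CPM in siLuc-LNP mice (log2 fold change 2.94, SE 0.37, adjusted p = 0.000167). All 3 siLuc-LNP mice were higher than all 4 control mice, and mouse 1 was the highest. The siHAS2-LNP mice had 9.09, 10.6 and 8.91 CPM (adjusted p = 0.00144) and the 4MU mice 0.461, 1.37 and 0.658 CPM.

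Trem2 (chr17:48653429-48661175, plus strand) was at 0.509, 0.236, 0.171 and 0.532 CPM in control mice and 3.72, 1.48 and 3.25 CPM in siLuc-LNP mice (log2 fold change 2.93, SE 0.41, adjusted p = 0.000531). It was at 1.86, 1.74 and 1.20 CPM in siHAS2-LNP mice (adjusted p = 0.0422). Ccr1 (chr9:123762161-123768734, minus strand) was at 0.509, 0.413, 0.769 and 0.572 CPM against 4.92, 2.11 and 2.24 CPM (log2 fold change 2.41, SE 0.42, adjusted p = 0.00542), and the call was lost without siLuc-LNP mouse 1, the highest of its group. Ms4a4a (chr19:11352823-11370154, plus strand) was at 0.204, 0.0590, 0.342 and 0.409 CPM against 4.23, 1.48 and 1.19 CPM (log2 fold change 3.07, SE 0.46, adjusted p = 0.000937). In each of these genes the groups did not overlap, which was part of the rule by which they were named. In each, the lowest siLuc-LNP mouse was mouse 2 or 3.

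Gdf3, a growth factor of the transforming growth factor beta family that macrophages can secrete, had 1 count over the control libraries and 62 over the siLuc-LNP libraries, a ratio of 90.6 (15.7 to 3636, adjusted p = 0.000905). The siHAS2-LNP libraries held 25 counts, a ratio of 33.7 to control (5.51 to 1383), which did not pass the test (adjusted p = 0.0791). Art2a, an ADP-ribosyltransferase of lymphoid and myeloid cells, was at 0.662, 0.767, 1.49 and 0.491 CPM in control mice and 3.60, 3.59 and 7.69 CPM in siLuc-LNP mice (log2 fold change 2.53, SE 0.46, adjusted p = 0.00914). Multimapping reads were not counted, so reads that also fit the near-identical Art2b are missing from its count. The call was lost without control mouse 4 or siLuc-LNP mouse 3. Ly86, a myeloid partner of a Toll-like receptor homologue, rose 2.03-fold (adjusted p = 0.0439). Ifi30, a lysosomal reductase for antigen processing that interferon gamma induces, and Tgfbi, a matrix protein made by macrophages, both rose 1.80-fold (adjusted p = 0.0393 and 0.0344) and were picked out after their values were seen. These 3 calls were near the threshold, and each was lost in 6 to 8 of the 14 alternative analyses.

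Members of the monocyte list that did not pass the test were Fcgr1, the high-affinity IgG receptor (log2 fold change 0.87, SE 0.25, adjusted p = 0.284), Ccr2, the receptor that draws monocytes from marrow (log2 fold change 1.08, SE 0.37, adjusted p = 0.447), and Lyz2, lysozyme (log2 fold change 0.78, SE 0.32, adjusted p = 0.605). Fcgr1 stood at 7.38, 5.31, 5.55 and 4.82 CPM in control mice and 10.6, 7.86 and 13.1 CPM in siLuc-LNP mice, and Ccr2 at 2.04, 3.84, 3.12 and 4.50 CPM and 6.58, 8.32 and 6.64 CPM, with no overlap in either gene. Ly6c2, which marks classical monocytes, differed by -0.70 (adjusted p = 0.921). The neutrophil list had a median log2 fold change of 0.33, which became -0.88 without siLuc-LNP mouse 1, with a summed level of 105 CPM in that mouse and 19.0 and 19.3 CPM in the others.

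The promoters of a pair of the lowered and a pair of the raised macrophage genes are shown because these genes moved in opposite directions. Each window runs from 250 bases before to 50 bases after the start of the gene in RefSeq on build GRCm38.p6, 5′ to 3′ on the gene's strand, and capitals mark GAGGAA on either strand, the core of the PU box bound by the myeloid factor PU.1.
Cd163, chr6:124304401-124304700, plus strand: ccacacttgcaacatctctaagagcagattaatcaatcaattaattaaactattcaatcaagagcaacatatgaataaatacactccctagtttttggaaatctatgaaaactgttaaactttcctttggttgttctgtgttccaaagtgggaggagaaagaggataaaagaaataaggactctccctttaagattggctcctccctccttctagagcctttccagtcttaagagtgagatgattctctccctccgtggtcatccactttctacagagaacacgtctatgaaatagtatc
Marco, chr1:120504975-120505274, minus strand: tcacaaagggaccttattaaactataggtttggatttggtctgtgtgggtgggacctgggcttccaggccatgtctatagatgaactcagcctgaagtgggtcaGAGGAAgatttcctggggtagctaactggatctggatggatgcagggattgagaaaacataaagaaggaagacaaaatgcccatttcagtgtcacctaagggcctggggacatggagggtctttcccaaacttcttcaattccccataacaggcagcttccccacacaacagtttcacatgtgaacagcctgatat
Cx3cr1, chr9:120068247-120068546, minus strand: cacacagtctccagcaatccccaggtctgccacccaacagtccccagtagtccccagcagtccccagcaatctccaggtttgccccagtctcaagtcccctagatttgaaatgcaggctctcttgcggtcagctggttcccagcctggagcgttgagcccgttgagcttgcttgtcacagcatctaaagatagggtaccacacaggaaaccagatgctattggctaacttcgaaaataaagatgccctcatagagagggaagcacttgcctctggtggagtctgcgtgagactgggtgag
Trem2, chr17:48346151-48346450, plus strand: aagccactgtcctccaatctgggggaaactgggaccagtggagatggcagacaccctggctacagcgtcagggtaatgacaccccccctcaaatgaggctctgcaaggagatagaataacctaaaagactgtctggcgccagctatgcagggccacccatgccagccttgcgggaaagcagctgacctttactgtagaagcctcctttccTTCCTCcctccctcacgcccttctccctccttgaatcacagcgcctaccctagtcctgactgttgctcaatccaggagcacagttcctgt
Marco of the lowered genes and Trem2 of the raised genes held 1 match each, and Cd163 and Cx3cr1 held none. Windows were found for 24 of the 30 called genes, some of them with more than 1 window, and 4 of the 32 windows (12.5%) held the motif, against 28.3% of the 32851 windows of all genes. A match is a description of the letters only.

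Some of the other lowered genes were low under the siLuc particle while siHAS2-LNP mice, given a particle of the same lipids, stood near the control mice. Colec12, a scavenger receptor of endothelial cells, fell 2.48-fold, Gpt2, the mitochondrial alanine aminotransferase, fell 2.66-fold, and C9, the pore-forming component of complement, fell 2.39-fold. In the direct comparison of siHAS2-LNP with siLuc-LNP mice, 6 genes passed the test (0.0425% of those tested), and 3 of them were among the 18 lowered genes, Colec12, Gpt2 and Klhl42, an adaptor of a ubiquitin ligase. None of the 12 raised genes passed it. Both sets were chosen on values of the same siLuc-LNP mice. That choice biases the lowered genes toward higher values, and the raised genes toward lower values, in siHAS2-LNP than in siLuc-LNP mice. The count of 6 fell to 2, 1 and 1 without siHAS2-LNP mouse 1, 2 and 3, and to 3 and 2 without siLuc-LNP mouse 2 and 3. Colec12 was called between the particles in 13 of 13 alternative analyses, Klhl42 in 7 and Gpt2 in 6.

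Colec12 was at 67.3, 66.5, 61.2 and 60.9 CPM in control mice, 22.0, 29.5 and 26.0 CPM in siLuc-LNP mice and 75.8, 66.8 and 72.9 CPM in siHAS2-LNP mice. The siLuc-LNP mice were all below the other groups, which overlapped each other. Against control the difference passed the test (log2 fold change -1.31, SE 0.19, adjusted p = 0.000905), and so did that between the particles (log2 difference of siHAS2-LNP minus siLuc-LNP 1.48, SE 0.20, adjusted p = 0.00226).

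Gpt2 (chr8:86218810-86255577, plus strand) was at 210.0, 138, 129 and 245 CPM in control mice, 68.2, 65.5 and 70.0 CPM in siLuc-LNP mice and 154, 122 and 161 CPM in siHAS2-LNP mice. Its values lay closer together in siLuc-LNP mice than in control mice, and no siLuc-LNP mouse reached a control mouse (log2 fold change -1.41, SE 0.20, adjusted p = 0.000531). The particles differed by 1.10 (SE 0.21, adjusted p = 0.0356).

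C9 (chr15:6474795-6547009, plus strand) was at 253, 265, 232 and 257 CPM in control mice, 103, 112 and 101 CPM in siLuc-LNP mice and 272, 325 and 256 CPM in siHAS2-LNP mice. It passed the test against control (log2 fold change -1.26, SE 0.27, adjusted p = 0.0449), though not when any 1 of the 7 mice was left out, and the difference between the particles missed the threshold (log2 difference 1.43, SE 0.28, adjusted p = 0.0514). The difference between the particles also missed the threshold for Entpd7, a nucleotide hydrolase, at 3.31, 3.72, 3.46 and 2.62 CPM in control mice, 0.744, 0.911 and 1.01 CPM in siLuc-LNP mice and 2.46, 2.36 and 3.59 CPM in siHAS2-LNP mice (log2 fold change -1.86, SE 0.31, adjusted p = 0.00278; difference between particles adjusted p = 0.0514). Samd5 was at 1.48, 1.77, 2.65 and 2.49, 0.915, 0.399 and 0.264, and 2.14, 2.50 and 2.27 CPM in the same 3 groups (log2 fold change -2.02, SE 0.42, adjusted p = 0.0353; between particles adjusted p = 0.0536).

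**Figure D3:**
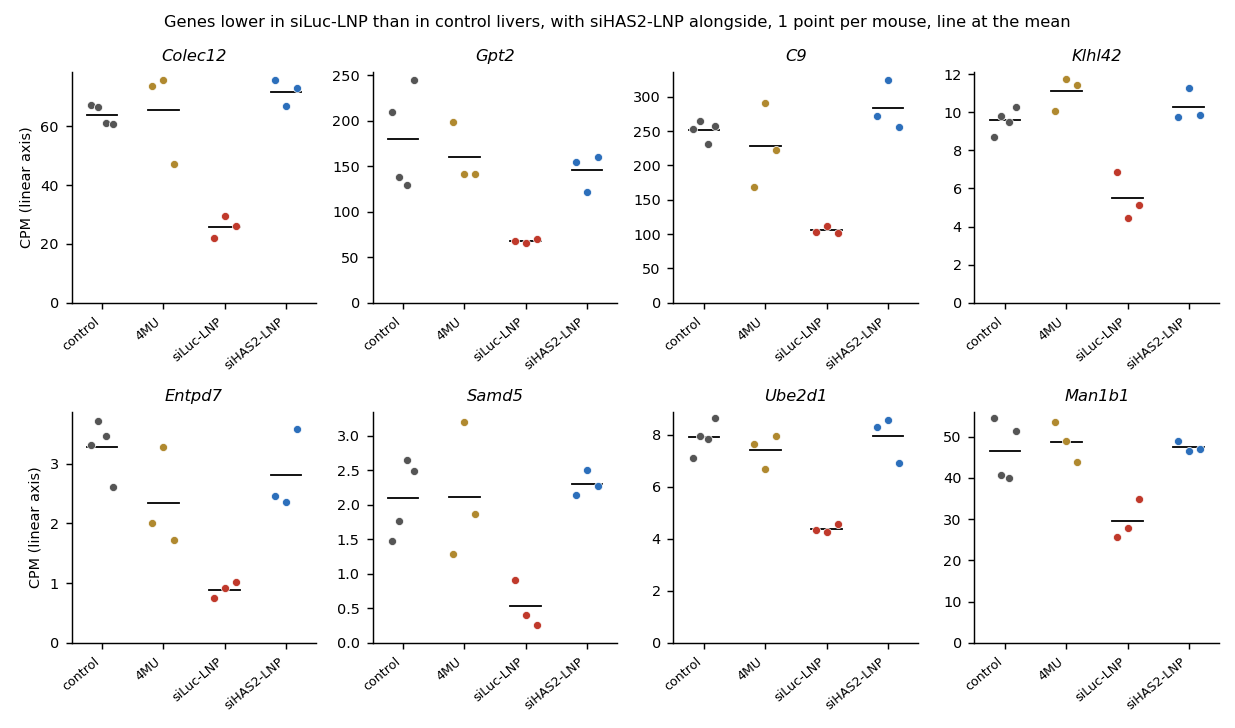
CPM in each mouse (points) with lines at group means for 8 lowered genes in control, siLuc-LNP, siHAS2-LNP and 4MU mice, with a linear axis from 0 in each panel. The siLuc-LNP mice lie below the siHAS2-LNP mice in each panel, a pattern for which the 8 genes were picked.

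The macrophage genes showed no called difference between the particles. The log2 difference of siHAS2-LNP minus siLuc-LNP was 0.68 for Cd163 (SE 0.47, adjusted p = 0.712), 0.14 for C6 (SE 0.31, adjusted p = 0.939), -0.39 for Cx3cr1 (SE 0.37, adjusted p = 0.808) and -0.80 for Trem2 (SE 0.37, adjusted p = 0.521). An adjusted p above the threshold does not show that the particles act alike on these genes. Against the control mice, which both particles share, siHAS2-LNP had 14 called genes (0.0992%), or 9 without control mouse 1 and 8, 8 and 9 without siHAS2-LNP mouse 1, 2 and 3. Among the genes called in siLuc-LNP mice, 4 of the 12 raised (Cx3cr1, Trem2, Ccr1 and Ms4a4a) and 6 of the 18 lowered (Cd163, C6, Pcolce2, Kcnj16, Marco and Cxcl13) had a siHAS2-LNP adjusted p under 0.05.

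The remaining called genes are in none of the fixed lists, and most were named after their values were seen. Trpm6, a magnesium channel, was at 1.37, 1.18, 1.11 and 1.47 CPM in control mice and 3.38, 3.36 and 3.38 CPM in siLuc-LNP mice (log2 fold change 1.39, SE 0.26, adjusted p = 0.0109). Coq3, an enzyme of ubiquinone synthesis, rose 1.46-fold (adjusted p = 0.0161). Tsc22d1, a leucine zipper regulator, had 47.8, 36.8, 68.9 and 38.9 CPM in control mice and 52.9, 255 and 215 CPM in siLuc-LNP mice, so the groups overlapped through siLuc-LNP mouse 1 (adjusted p = 0.0449), and the call was lost without control mouse 1, 2 or 4 or siLuc-LNP mouse 2 or 3. Lower in siLuc-LNP mice were Ube2d1, a ubiquitin conjugating enzyme, by 1.80-fold, Gnat1, a G protein subunit of rod photoreceptors, by 2.89-fold, Ccdc148 by 3.53-fold, Klhl42 by 1.75-fold, Dcun1d2 by 1.70-fold, Man1b1, a mannosidase of the secretory pathway, by 1.58-fold and Cyb561 by 2.71-fold. Their adjusted p lay between 0.00542 (Ccdc148) and 0.0492 (Cyb561), and for Cyb561 the groups overlapped. Of the called genes, 22 share their position with another annotated gene, and the strand setting of the counting is not given in the sources used here.

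Of 53 lists, 48 held no called gene, and 8 of the 30 called genes belonged to a list. Over the 1008 tested genes found only in those 48 lists, edgeR called 0, while 44 were higher and 49 lower at an unadjusted p under 0.05. DESeq2 called 1 of them and limma-voom 10.

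No gene of the interferon-stimulated list passed the test. Among its 56 tested genes edgeR called 0, with 1 higher and 6 lower at an unadjusted p under 0.05 and a median log2 fold change of -0.14 (-0.23 to -0.081). Ifi30, which rose as given above, is not in the list. Ifit1, a classic target of interferon, was at 31.7, 27.6, 20.7 and 21.7 CPM in control mice and 26.2, 17.3 and 18.3 CPM in siLuc-LNP mice (log2 fold change -0.30, SE 0.34, adjusted p = 0.968). Isg15, a ubiquitin-like protein made in response to interferon, was at 39.7, 59.3, 42.0 and 24.2 CPM and 35.4, 27.3 and 30.1 CPM (log2 fold change -0.42, SE 0.29, adjusted p = 0.894). Ly6e had the smallest adjusted p of the list and lower values in siLuc-LNP mice (log2 fold change -0.60, SE 0.15, adjusted p = 0.147). The 25 tested nucleic acid sensors and signalling genes had a median log2 fold change of 0.04 (-0.054 to 0.086), and the nearest to the threshold was Tlr4, the lipopolysaccharide receptor (log2 fold change 1.02, SE 0.35, adjusted p = 0.447). Cxcl10, a chemokine induced by interferon, differed by 0.03 (adjusted p = 0.998).

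Acute-phase proteins, which hepatocytes secrete in inflammation, had lower values in siLuc-LNP mice that did not pass the test. None of the 32 genes had an adjusted p under 0.05 by edgeR, 10 had an unadjusted p under 0.05, all of them lower, and the median log2 fold change was -0.39 (-0.46 to -0.36). The list's summed level was 73355 CPM in control mouse 2 and 45407 to 47183 CPM in the other control mice. It was 43806 to 45967 CPM in siLuc-LNP mice, so the groups overlapped. Saa1, serum amyloid A1, was at 79.1, 526, 138 and 160.2 CPM in control mice and 37.2, 36.9 and 25.1 CPM in siLuc-LNP mice, with control mouse 2 far above the others (log2 fold change -2.77, SE 0.95, adjusted p = 0.447). In siHAS2-LNP mice Saa1 was at 82.9, 2565 and 70.9 CPM. Saa1 and Saa2 are near-copies, and multimapping reads were not counted, so reads that fit both are missing from the counts. Orm2, an orosomucoid, was at 59.4, 187, 51.2 and 93.2 CPM in control mice and 42.0, 21.5 and 16.0 CPM in siLuc-LNP mice (log2 fold change -1.88, SE 0.60, adjusted p = 0.377). Control mouse 2 had the highest value of these genes among the control mice.

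Among the 26 complement genes the 2 called were C6 and C9, and 7 had an unadjusted p under 0.05, all lower, with a median of -0.09 (-0.13 to -0.01). Hc, which encodes complement C5, differed by -0.44 (adjusted p = 0.68). Among 23 chemokines and cytokines, Cxcl13 was the called gene, and the median was -0.07 (-0.12 to 0.05).

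Of the 20 tested lipoprotein and scavenger receptors that could take up the particle, Colec12 and Marco passed the test, both lower, and the median was -0.05 (-0.14 to -0.016). Apoe, the apolipoprotein through which such receptors bind particles, differed by 0.23 (SE 0.28, adjusted p = 0.968). Cd36, a fatty acid and scavenger receptor, was at 56.1, 43.9, 71.9 and 125 CPM against 20.5, 36.9 and 30.4 CPM (log2 fold change -1.34, SE 0.36, adjusted p = 0.203).

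The machinery of RNA interference did not pass the test in any of its 19 genes, with a median log2 fold change of 0.11 (0.048 to 0.17) and 1 gene, Tnrc6b, at an unadjusted p under 0.05 (log2 fold change 0.73, SE 0.23, adjusted p = 0.389). Ago2, the slicer that uses siRNA as its guide, did not pass either (log2 fold change 0.22, SE 0.21, adjusted p = 0.957). De novo lipogenesis had a median of -0.49 over 21 genes (-0.73 to -0.25) and cholesterol synthesis -0.21 over 27 (-0.47 to 0.14), with no gene called. The highest of both ranges was reached without siLuc-LNP mouse 1. The 44 cytochrome P450 drug-metabolism genes had a median of -0.09 (-0.23 to -0.0024). Of 34 collagens and matrix genes 30 were above 0, against 52.2% of all tested genes, with a median of 0.25 (0.20 to 0.42) and none called, while 6 were higher at an unadjusted p under 0.05. Their summed level was 2911 to 3971 CPM in control mice and 2857 to 4294 CPM in siLuc-LNP mice, so the groups overlapped. Markers of stellate cells had a median of 0.12 (0.011 to 0.20), sinusoidal endothelium -0.20 (-0.35 to 0.015), B and plasma cells -0.35 (-0.62 to -0.20) and hepatocytes -0.19 (-0.25 to -0.16), with no gene called, and Lrat, Stab2 and Alb had adjusted p of 0.983, 0.998 and 0.889.

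**Figure D4:**
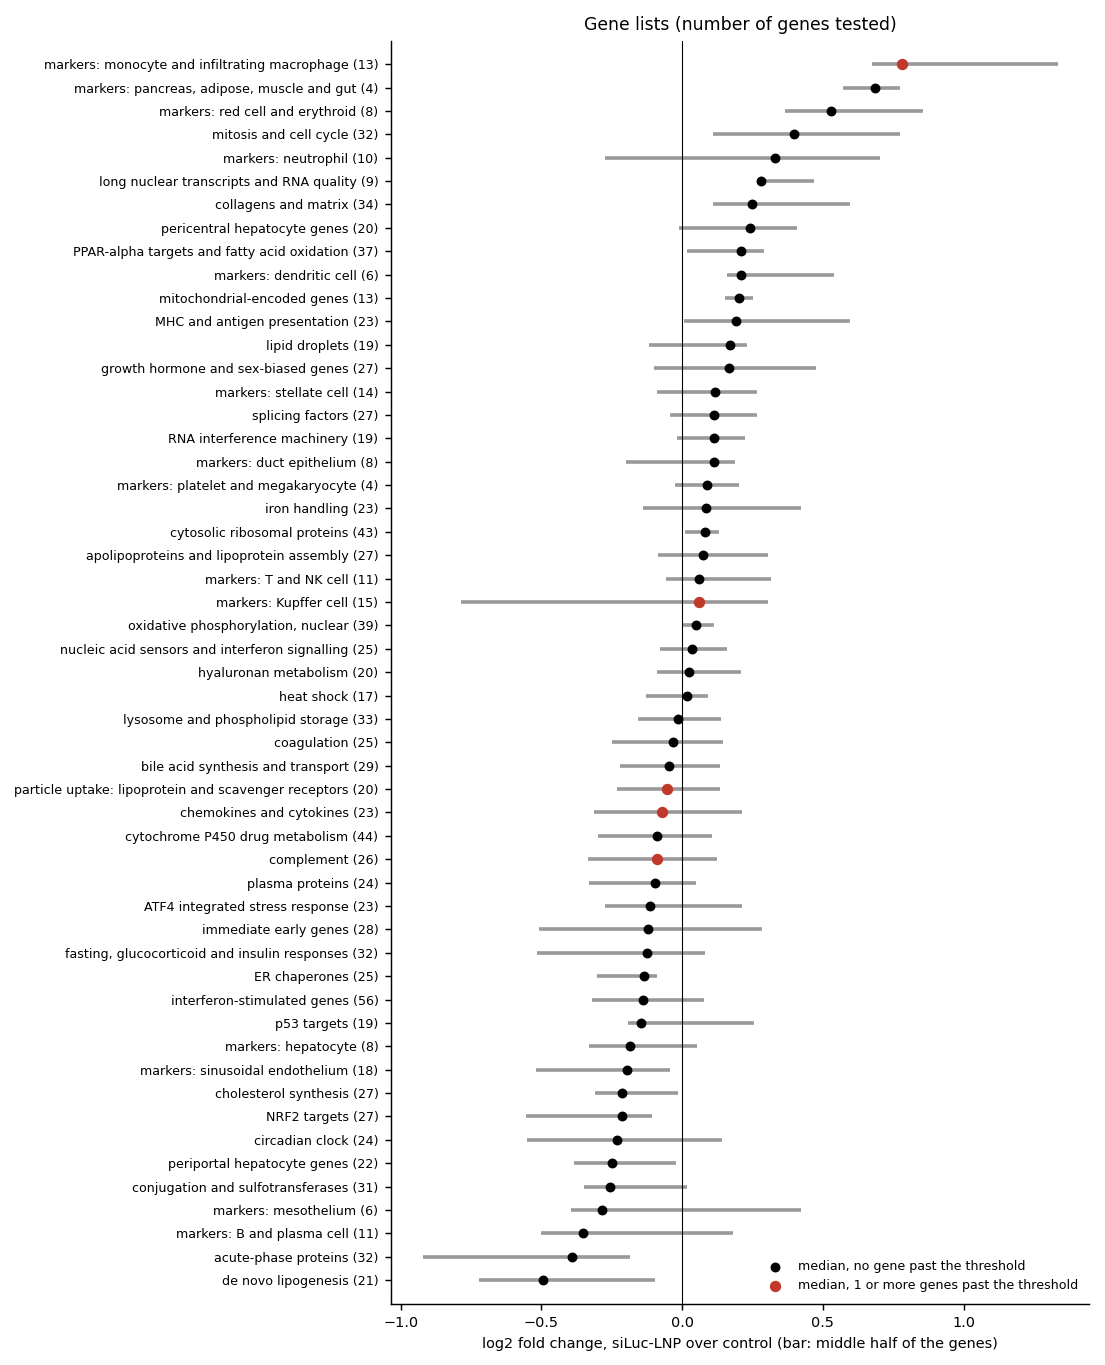
Log2 fold change of siLuc-LNP against control over the tested genes of each list, with the median (point) and the range from the lower to the upper quartile (bar). Medians over the 48 lists with no called gene ran from -0.49 to 0.68, and the monocyte and infiltrating macrophage list had a median of 0.78.

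The same particle was also given during CCl4 injury, to different mice, and 35 genes were called when CCl4 + siLuc-LNP was set against CCl4 (0.248%), 8 higher (0.0567%) and 27 lower (0.191%). Only 2 mice had CCl4 alone. Of the 30 genes called in uninjured liver, Cd163, Marco, Pcolce2 and Kcnj16 were called there too, each lower. The 30 genes were not chosen on these mice. All 12 raised genes had a log2 fold change above 0 in injured liver, where 51.6% of tested genes did, and all 18 lowered genes had one below 0, where 48.4% did. In 11 of the 18 lowered genes and 2 of the 12 raised genes the CCl4 + siLuc-LNP and CCl4 mice did not overlap, against 7.33% and 6.95% of tested genes. The median log2 fold change in injured liver was -0.51 for the lowered genes and 0.30 for the raised genes.

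Cd163 was at 4.19 and 9.04 CPM in the CCl4 mice and 0.196, 0.617, 0.480 and 0.173 CPM in the CCl4 + siLuc-LNP mice (log2 fold change -4.20, SE 0.44, adjusted p = 6.48e-06). Marco was at 15.0 and 31.5 CPM and 0.0784, 0.540, 0.300 and 0.0347 CPM (log2 fold change -6.63, SE 0.68, adjusted p = 6.48e-06). Pcolce2 was at 2.87 and 2.07 CPM and 0.470, 0.231, 0.240 and 0.520 CPM (adjusted p = 0.0112), and Kcnj16 had 29 counts against 2, a ratio of 29.9 (7.55 to 258, adjusted p = 0.0167). C6 was at 6.57 and 6.33 CPM and 1.61, 2.70, 2.70 and 2.98 CPM and missed the threshold (adjusted p = 0.0532).

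Several of the raised macrophage genes had higher values in CCl4 mice than in uninjured control mice, a difference that was not tested here. Trem2 was at 16.4 and 13.3 CPM in CCl4 mice and 24.0, 12.4, 13.4 and 14.0 CPM in CCl4 + siLuc-LNP mice (log2 fold change 0.10, adjusted p = 0.927), against 0.509, 0.236, 0.171 and 0.532 CPM in uninjured control mice. Cx3cr1 was at 6.42 and 12.7 CPM and 16.4, 12.2, 9.55 and 11.2 CPM (adjusted p = 0.734). The interaction, which tests whether the effect of the particle differs between uninjured and injured liver, passed the threshold for 1 gene of all tested (0.00709%), Rpa2, and for none of the 30 genes. The smallest adjusted p among them was 0.0607, for Trem2, followed by 0.0816 for Cx3cr1 and Ms4a4a. The count of 35 calls in injured liver depended on single mice: it was 1062 without CCl4 + siLuc-LNP mouse 4, 195 without CCl4 mouse 1, and 10, 12 and 7 without CCl4 + siLuc-LNP mouse 1, 2 and 3.

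**Figure D5:**
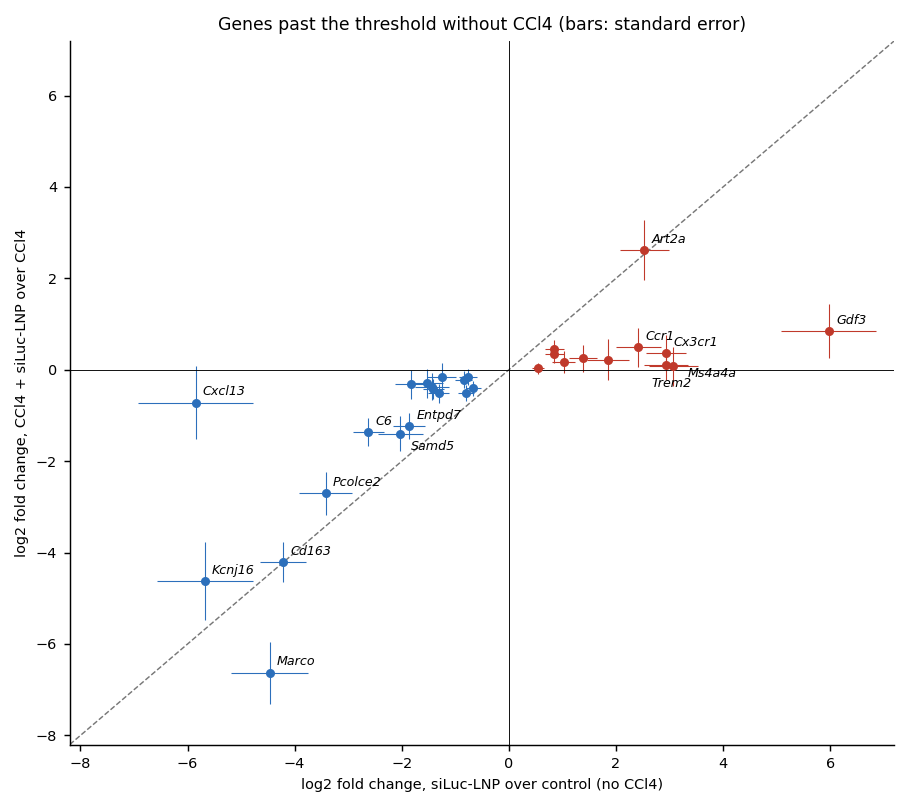
Log2 fold change of siLuc-LNP against control in uninjured liver (horizontal axis) and of CCl4 + siLuc-LNP against CCl4 in injured liver (vertical axis) for the 30 called genes of the uninjured comparison, with bars for the standard error and a dashed line of equal values. Fitted values of Kcnj16, Cxcl13 and Gdf3 rest on few counts. Cd163, Marco, Pcolce2 and Kcnj16 lie low on both axes, while Cx3cr1, Trem2 and Ms4a4a lie near 0 on the vertical axis.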

How the data were processed

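Liver RNA of 27 mice in 8 groups was sequenced by the authors (polyA selection, directional NEBNext kit, paired-end NextSeq500). Per the submitters' notes and the study's methods, the authors used Trimmomatic 0.39 for trimming, HISAT2 for alignment to the GRCm39 build, and featureCounts, leaving out multimapping reads, for counts per Ensembl gene. The strand setting is not given in the sources used here. The authors deposited raw counts per gene.

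Counts were fitted with edgeR 4.0.16 (R 4.3.3), all 27 mice in 1 quasi-likelihood model with trimmed mean of M-values scaling and a term per group. Genes with a mean count of at least 10 entered, and p-values were adjusted by Benjamini-Hochberg over all of them. The SE of a log2 fold change was derived from the test, as its absolute value divided by the square root of the F statistic. Each library is 1 mouse, so the tests measure the spread between mice. Labels give no batch. Alternatives were DESeq2 1.42.0, limma 3.58.1 (voom with quality weights), other scaling, filters and samples, a replicate block and leaving out each mouse. Gene symbols and positions come from GENCODE on GRCm39, which matched 54749 of 55414 identifiers. The fit was tested on simulated counts. The members and gene lists were chosen with earlier results of these data known. Named genes were the 8 with the largest change and the 4 with the smallest p in each direction among called genes with groups apart and a group mean of at least 1 CPM, up to 3 called genes per list, and 12 always named genes, 1 of which is not reported here.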

Additional observations from a re-analysis of the deposited data

Results flagged for a closer look

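Within the control group, 3 of the 41 genes looked at had 1 mouse whose gap to the nearest other mouse, divided by the range of the group, exceeded Dixon's 95% critical value for 4 samples. For normally distributed values such flags come by chance in about 1 in 20 groups. For Gdf3 the mouse stood at 0.0509 CPM (gap over range 1.00), which was 1 count, and the other control mice were at 0. With 0 in all other mice, any single count gives a gap over range of 1.00, so this flag says nothing. For Stab2, a scavenger receptor of sinusoidal endothelium, the mouse stood at 29.9 CPM (0.887), and for Cxcl10 at 6.26 CPM (0.834). Neither Stab2 nor Cxcl10 was called in siLuc-LNP mice, and the Gdf3 call held without each mouse in turn.

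Rpa2, a subunit of the single-strand DNA binding complex of replication, was flagged because its response to the particle differed between uninjured and injured liver by an interaction log2 difference of -1.88 (adjusted p = 0.0452). Its log2 fold change was 0.30 (SE 0.22, adjusted p = 0.899) in uninjured liver and -1.58 (SE 0.23, adjusted p = 0.00147) in injured liver. It stood at 39.1 and 48.8 CPM in the CCl4 mice and at 15.7, 9.76, 10.9 and 22.4 CPM in the CCl4 + siLuc-LNP mice, and the 7 uninjured mice lay between 8.24 and 12.2 CPM. Rpa2 did not pass the interaction without control mouse 1, 2, 3 or 4, siLuc-LNP mouse 1, 2 or 3, CCl4 mouse 2, or CCl4 + siLuc-LNP mouse 2 or 3.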

How the results depend on the processing

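The 30 calls of siLuc-LNP against control became 67 with DESeq2, 84 with limma-voom, 143 without a filter on low counts, 12 with the other groups left out of the fit and 960 at an unadjusted p under 0.05. They ranged from 14 to 28 when each mouse was left out in turn, and 22, 22, 23 and 17 of the 30 were kept without control mouse 1, 2, 3 and 4 and 20, 18 and 14 without siLuc-LNP mouse 1, 2 and 3. All 30 were also called by DESeq2 and with DESeq2's size factors in edgeR, 29 by limma-voom, 25 without the filter and 11 with only the compared groups. The 14 calls of siHAS2-LNP against control became 54, 85, 193, 32 and 914 under the same settings, with 8 to 12 when a mouse was left out. The 6 calls between the particles became 77 with DESeq2, 171 with limma-voom, 158 without the filter and 1262 at an unadjusted p, with 1 to 9 when a mouse was left out. The 35 calls of CCl4 + siLuc-LNP against CCl4 became 295, 175, 427, 1 with only the compared groups, 2001 at an unadjusted p and 20 when a log2 change of 1 or more either way was also asked for, with 7 to 1062 when a mouse was left out. The 1 interaction call became 39 with DESeq2, 7 with limma-voom, 197 without the filter, 0 with only the compared groups, 0 with filterByExpr and 1411 at an unadjusted p, with 0 to 247 when a mouse was left out. Where a mouse left out leaves 1 CCl4 mouse, that mouse is assumed to vary like the other groups. The cause of these changes was not tested.

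Replicate numbers shared by the groups were not taken as pairs. Deviations from the group means of same-numbered control and siLuc-LNP mice correlated at -0.32, -0.10 and -0.18 over genes. No siLuc-LNP mouse correlated best with its own number. So few pairs cannot show that mice with the same number share nothing. With the replicate number as a block, 21 of the 30 calls remained, siHAS2-LNP against control had 15 calls, the particles differed in 8 genes, CCl4 + siLuc-LNP against CCl4 in 17 and the interaction in 0.

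Apoe, Cxcl10, Lrat and Stab2, none of them called, changed direction when a mouse was left out: on the log2 scale Apoe ran from -0.0365 to 0.36, Cxcl10 from -0.43 to 0.28, Lrat from -0.54 to 0.10 and Stab2 from -0.14 to 0.16. Over the 48 lists with no called gene, 1 gene was called by DESeq2, 10 by limma-voom, 33 without the filter and 2 without siLuc-LNP mouse 1. With 3 siLuc-LNP mice, a median SE of 0.22 on the log2 scale limits what could be called.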
